A study of Mus musculus with 74 samples.

Results

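The Zfp599 ChIP mapped the binding of the mouse KRAB zinc finger protein Zfp599 in F9 EC cells, a mouse embryonal carcinoma line. Its members are the peaks that the deposited table lists under the name Zfp599, which are 697 of 53255 peaks in the series. The series holds ChIP-seq of tagged KRAB-ZFPs in 74 samples, inputs and control ChIPs included, and asks which genomic sequences these proteins bind. The comparison group was made of the other F9 ChIPs with an HA tag, called over the same F9_Input and HA_control libraries. It has 30 labelled samples, and the peaks of 29 of them, 11986 in all, were used. The label Zfp94 matched no name in the table and the name Zfp92, with 244 peaks, matched no label, so neither was analysed here.

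Zfp599 was overexpressed as a fusion with an N-terminal 3XHA tag from a codon-optimised reading frame in a stably integrated Sleeping Beauty vector, and the puromycin-resistant cells, pooled, were precipitated with the HA antibody ab9110 after formaldehyde fixation. There was 1 Zfp599 sample. No value has a replicate error, and all intervals below are 95% Wilson intervals that cover counting error only. The library depth is unknown here, so an unoccupied site is a site without a called peak and not a site shown to be free of Zfp599. The 697 peaks held 40344 tags, within the range of 1681 to 183824 tags over the 29 other HA ChIPs. The comparison samples shared the HA tag, the overexpression and the F9 background. Of the 29, 18 were called at the thresholds of Zfp599 (p < 1e-10, enrichment > 20) and the rest at less strict ones, and 6 had the tag at the N-terminus. The Zfp599 folds ran from 20.1 to 160.9, so weaker sites are not in the list.

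KRAB-ZFPs bind DNA through an array of C2H2 zinc fingers, each of which contacts a few neighbouring bases, so that the array as a whole reads a long site. Their KRAB domain recruits KAP1, a scaffold for enzymes that set repressive histone marks, and many KRAB-ZFPs bind retrotransposons. ORR1 elements are non-autonomous LTR retrotransposons of rodents that belong to the MaLR group.

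The study tested Zfp599 repression on a reporter that carried an oligo taken from an ORR1B1 element. The oligo is shown first because it was the starting point for the site search, followed by the commonest base at each position of 279 aligned genomic sites. Capitals mark 2 words of 6 bases, CCATGT on the left and TGGACT on the right, whose starts lie 24 bases apart.
Zfp599 reporter oligo: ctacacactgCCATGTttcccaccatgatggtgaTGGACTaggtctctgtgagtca
Commonest base at bound sites: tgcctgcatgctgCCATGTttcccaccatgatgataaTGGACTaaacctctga

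The 6 sites below are those with the largest fold enrichment among the peaks that hold the oligo stretch, and each is given on the strand of the site, with mm9 coordinates and the host gene or the gene with the nearest transcript start. They show how far the copies diverged around both words.
Znrf1, intron, chr8:114135699-114135758, minus strand: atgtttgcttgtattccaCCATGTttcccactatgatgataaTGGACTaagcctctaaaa
Hps3, intron, chr3:19924379-19924438, plus strand: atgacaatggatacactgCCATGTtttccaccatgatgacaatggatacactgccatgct
Gm12495, intergenic, chr4:53355501-53355560, plus strand: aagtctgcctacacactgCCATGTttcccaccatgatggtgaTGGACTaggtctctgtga
Hmgb2, intergenic, chr8:59987888-59987947, minus strand: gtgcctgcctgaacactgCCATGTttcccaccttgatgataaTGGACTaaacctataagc
1700019O17Rik, intergenic, chr1:88326976-88327035, plus strand: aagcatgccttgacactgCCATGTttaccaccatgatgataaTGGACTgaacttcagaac
U6, intergenic, chr5:39085519-39085578, minus strand: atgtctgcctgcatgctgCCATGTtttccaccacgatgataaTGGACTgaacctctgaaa
The left word was exact in all 6 of these sites and the right word in 5 of them. The site in Hps3 lacked the exact right word.

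To find where Zfp599 sat on the oligo, every 17-base stretch of its 56 bases was searched in the 200 bp peak windows on both strands, allowing 3 mismatches. The stretch at oligo positions 8 to 24, counted from 1 at the 5′ end, was found in 279 peaks, and it was used from here on. It was chosen for its number of Zfp599 peaks, so that number is a description. The stretch at positions 24 to 40 was found in 277 peaks, while the first stretch of the oligo was found in 97. Of the 697 peaks, 44 held the chosen stretch without a mismatch, 124 with at most 1, 200 with at most 2, 279 with at most 3 and 344 with at most 4.

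The match lay at the summit of the peak. The median distance of its centre from the summit was -1.5 bp, with quartiles of -16.5 and 14 bp, and 269 of the 279 matches (96.4%) lay within 50 bp. Peaks with a closer match were not much higher. The median fold enrichment was 36.4 for 44 peaks without a mismatch, 38.6 with 1 mismatch, 31.8 with 2, 30.7 with 3 and 30.1 for the 280 peaks with 6 or more mismatches, and the interquartile ranges overlapped throughout.

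**Figure D1:**
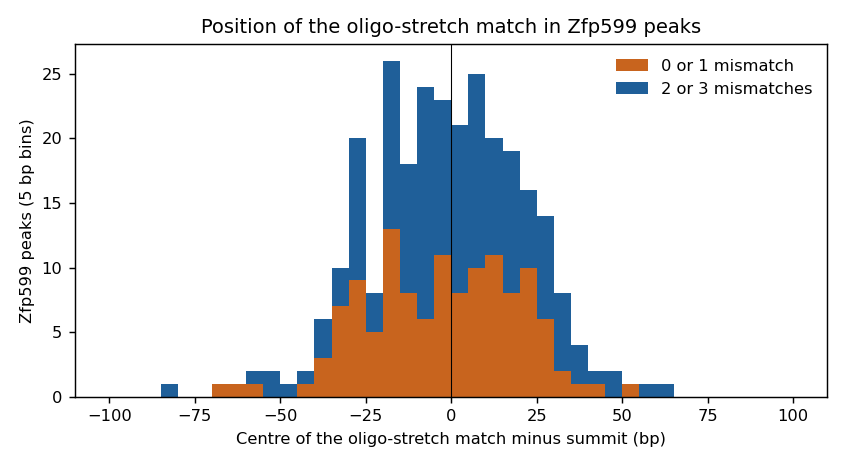
The number of Zfp599 peaks (y axis, 5 bp bins) is plotted against the distance in bp from the summit to the centre of the oligo-stretch match (x axis) for the 279 peaks with at most 3 mismatches. Stacked bars show peaks with 0 or 1 mismatch in orange and with 2 or 3 in blue, and 269 matches lie within 50 bp of the summit.

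The stretch was far more frequent in Zfp599 peaks than in those of the other HA ChIPs. It was present in 40.03% of Zfp599 peaks (279 of 697, interval 36.5 to 43.7%), against 0.225% of the 11986 peaks of the other HA ChIPs and 0.161% of 13100747 windows of 200 bp in the genome. The median share of the 29 other samples was 0, and the highest, in Zfp938, was 1.49%. Zfp599 exceeded all 29 samples. The stretch was chosen for its number of Zfp599 peaks, so this difference is a description and no test is given for it.

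The other 7 values of the Zfp599 peak set lay within the range of the 29 samples. Zfp599 had 697 peaks, against a median of 176 and a range of 67 to 1812 in the others. Its median called width was 338 bp, against 150 to 1263 bp, and its median fold enrichment was 30.9, against 11.9 to 55.4. The share of peaks in multi-copy sequence, defined as a median of at least 10 genomic copies of the 24-mers of the window, was 4.30%, with 19 samples above it and 10 below. The share of summits within 1 kb of a transcript start was 13.1%, exceeded in 6 samples, and the share of intergenic summits was 52.5%, exceeded in 17. The median GC content was 47%, which was also the median of the others. None of these values passed the exact permutation test over samples, two-sided (p from 0.467 to 1, adjusted p from 0.853 to 1 over 8 values). In this test 1 sample against 29 cannot go below 0.0667. The oligo-stretch share was counted among the 8 values of the adjustment only.

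**Figure D2:**
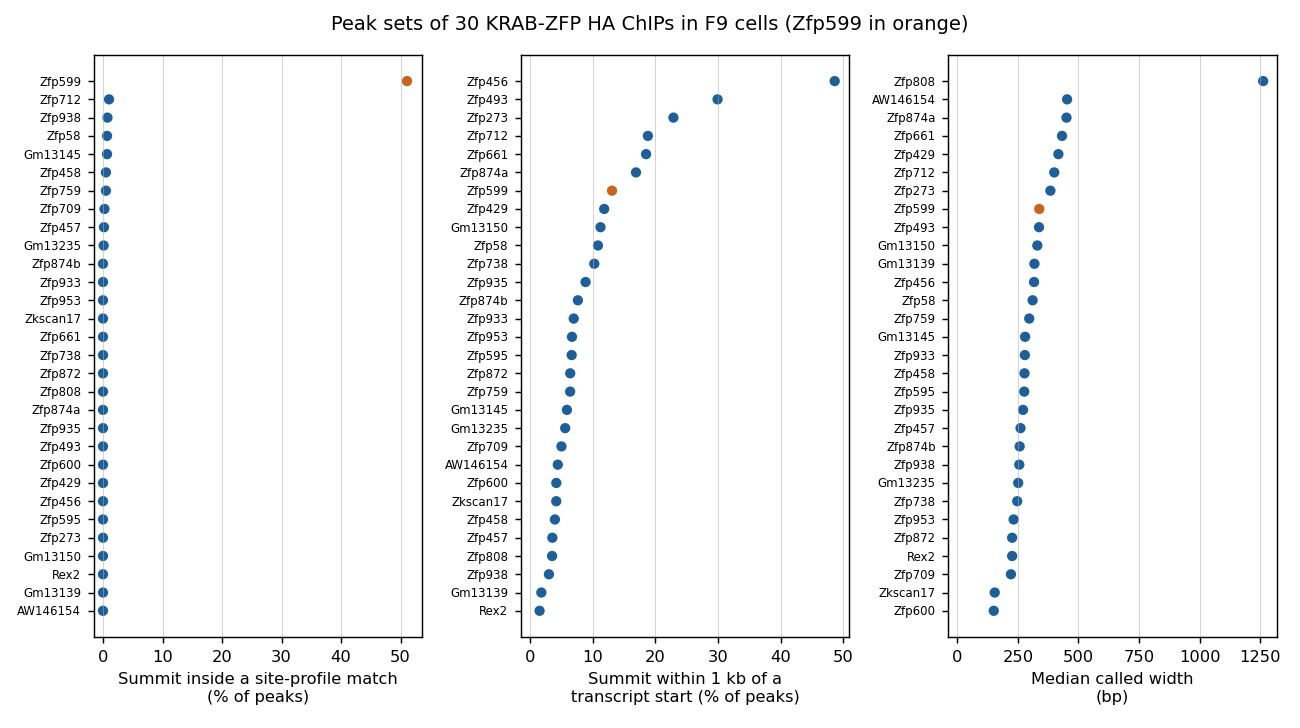
Each point is 1 of 30 HA ChIPs in F9 cells, with Zfp599 in orange. The left panel gives the share of summits inside a match to the Zfp599 site profile, the middle panel the share within 1 kb of a transcript start and the right panel the median called width in bp. Zfp599 stands at 51.1% in the left panel, where no other sample exceeds 1.02%, and within the range of the others in the middle and right panels.

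The sites aligned well beyond the stretch. Within the stretch, which was used to choose the sites, the bases of the left word were shared by 96.4 to 100% of the 279 sites. Outside it, those of the right word were shared by 89.2 to 96.4% of sites. The base just after the right word was shared by 46.9% (A, with G in 30.1%), but the one after that by 81.7%. The base just before the right word was shared by 92.1%, within the range of the word. The bound sites differed from the oligo between the words: the commonest base was A at the 24th and 26th positions from the start of the stretch, where 68.1% and 77.4% of sites held it, and the oligo held G at both. The 2 words were the 6-base words with the largest excess of Zfp599 peaks over the peaks of the other HA ChIPs that shared no 4 bases with each other, so their shares in the Zfp599 peaks are descriptions. On either strand, 63.3% of Zfp599 windows held the left word, against 12.9% of the peaks of the other HA ChIPs and 12.6% of genome windows. For the right word the share was 54.5%, against 8.84% and 9.73%.

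**Figure D3:**
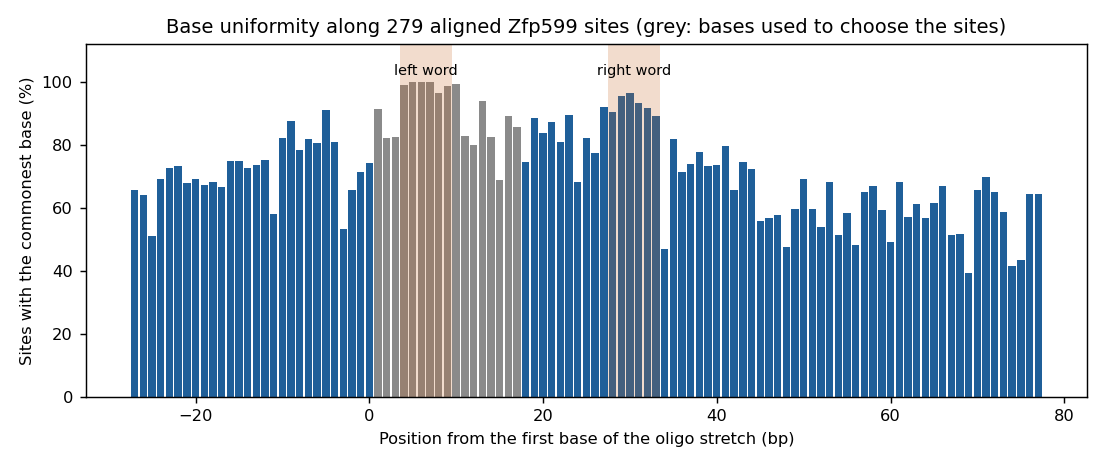
The share of 279 aligned Zfp599 sites with the commonest base (y axis, %) is plotted against the position from the first base of the oligo stretch (x axis, bp). Grey bars mark the stretch by which the sites were chosen and orange bands the words. The bases under the right word reach 89.2 to 96.4%. The base before the word reaches 92.1%, the base after it 46.9% and the next one 81.7%.

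Occupied word pairs were mostly 24 bp apart. Both words stood on the same strand, with starts 23 to 25 bp apart, in 288 Zfp599 peaks (41.3%, interval 37.7 to 45.0%), against 1 of 11986 peaks of the other HA ChIPs (0.00834%) and 0.0396% of genome windows. The genome held 6079 such pairs. At a distance of 24 bp, 263 of 1510 pairs had a Zfp599 summit within 100 bp of their centre (17.4%, interval 15.6 to 19.4%). At 23 bp, 18 of 3981 pairs were occupied (0.452%, interval 0.286 to 0.714%), and at 25 bp 8 of 588 were (1.36%, interval 0.691 to 2.66%). Pairs at 23 bp were the commonest in the genome. The words and the 24 bp spacing were taken from bound sites, so these shares are descriptions. Inside matches to the site profile described below, 261 of 1109 pairs at 24 bp were occupied (23.5%). There it was 18 of 3005 at 23 bp (0.599%) and 8 of 78 at 25 bp (10.3%, interval 5.29 to 18.95%).

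Within matches to the oligo stretch the order was the same but the interval at 25 bp was wide. Of stretches with at most 3 mismatches and both words exact, 215 of 705 at 24 bp were occupied (30.5%, interval 27.2 to 34.0%), 7 of 130 at 23 bp (5.38%, interval 2.63 to 10.7%) and 5 of 26 at 25 bp (19.2%, interval 8.51 to 37.9%). The intervals of 24 and 25 bp overlapped there, and these shares are likewise descriptions. The median copy number was 7.5 at 23 bp and 1 at 24 bp. Among stretches under 10 copies, 4 of 67 at 23 bp (5.97%) and 205 of 675 at 24 bp (30.4%) were occupied.

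A profile built from the 279 sites and their flanks (105 positions) was then used to find related sequence throughout the genome. It matched 59435 places, and 356 of them held a Zfp599 summit (0.599%). By peak, 356 of 697 summits (51.1%) lay inside a match, against 0.167% of peaks of the other HA ChIPs, where the highest sample was Zfp712 at 1.02%. Profile matches covered the centres of 0.216% of genome windows. The profile was trained on bound sites, so these shares describe the sites and are not an independent test. The median copy number of the 24-mers was 1 both inside and outside matches, and 26 of the 356 windows inside had a median of 10 or more copies.

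Few profile matches were occupied, and most of the occupied ones held both words. Among the 57206 profile matches that reached over both word positions, 281 of 4188 with both words 23 to 25 bp apart were occupied (6.71%, interval 5.99 to 7.51%). With the left word alone 41 of 9343 were occupied (0.439%), with the right word alone 26 of 20237 (0.128%), and with neither word 2 of 18450 (0.0108%). The words and the profile were both taken from Zfp599 peaks, so this difference is a description, also at comparable profile scores. For matches with bit scores of 60 to 80, 5.37% of those with both words were occupied (93 of 1731) and 0.0960% of the others (20 of 20828). Of the genomic word pairs that themselves lay outside profile matches, 2 of 1887 were occupied (0.106%, interval 0.0291 to 0.386%).

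Occupancy fell with each mismatch to the oligo stretch. Of 180 genomic stretches without a mismatch, 44 had a Zfp599 summit within 100 bp (24.4%, interval 18.7 to 31.2%). The share was 5.26% of 1558 stretches with 1 mismatch, 1.73% of 4515 with 2, 0.475% of 16640 with 3, 0.0647% of 103484 with 4 and 0.0133% of 644837 with 5. The right word, which lies outside the stretch, divided the stretches further. Like the stretch, it was chosen from the same peaks, so all these shares are descriptions. Of the 180 without a mismatch, 38 of the 71 with an exact right word were occupied (53.5%, interval 42.0 to 64.6%), 5 of the 48 with 1 mismatch in it (10.4%) and 1 of the 61 with 2 or more (1.64%). Over all stretches with at most 3 mismatches, 26.4% of the 861 with both words exact were occupied, 0.805% of the 4599 with the left word alone, 0.423% of the 3544 with the right word alone and 0.0288% of the 13889 with neither.

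Occupancy differed with the position of a single mismatch. The stretches are separate genomic sites, and the stretch and the left word were chosen on Zfp599 peaks, so these shares are descriptions. With the mismatch inside the left word, 8 of 1107 stretches were occupied (0.723%, interval 0.367 to 1.42%). With the mismatch elsewhere, 74 of 451 were occupied (16.4%, interval 13.3 to 20.1%). Most stretches with a mismatch in the left word carried the substitution T16C. The name gives the oligo base, its position in the oligo and the genomic base. Of 943 T16C stretches, 2 were occupied (0.212%, interval 0.0582 to 0.770%). With an exact right word it was 2 of 437 (0.458%), against 38 of 71 without the substitution. Apart from T16C, 6 of 164 stretches with a mismatch in the left word were occupied (3.66%, interval 1.69 to 7.75%). The positions of the word differed. With G15A, 5 of 19 were occupied (26.3%, interval 11.8 to 48.8%). For oligo positions 12, 13 and 14 it was 0 of 21, 0 of 18 and 0 of 15, which allows up to 14.3, 16.7 and 20%. At position 17, just after the word, 0 of 18 were occupied, which allows up to 16.7%. Between the words, 13 of 32 stretches with C19T were occupied (40.6%, interval 25.5 to 57.7%), and 13 of 89 with T18C (14.6%). With an exact right word it was 8 of 10 for C19T and 12 of 24 for T18C. C21T also lies between the words, and 0 of 60 were occupied, which allows a share of up to 5%. Only 14 of these had an exact right word, and 0 of 14 has an interval of 0 to 21.5%. The C21T counts cover stretches with this change alone, and 16.1% of the 279 aligned bound sites held T at this position.

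Reads with several equal positions were placed at random among them, so copy number was set beside these shares. The median copy number was 1 in both, and 9.23% of the T16C stretches and 7.22% of the exact ones had a median of 10 or more copies. Among stretches under 10 copies, 2 of 856 with T16C were occupied (0.234%) and 39 of 167 exact ones (23.4%). Occupancy moved with copy number where both words were exact, and its part in the other shares was not tested. There, 27.9% of 767 sites under 10 copies and 13.8% of 94 sites with 10 or more were occupied.

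**Figure D4:**
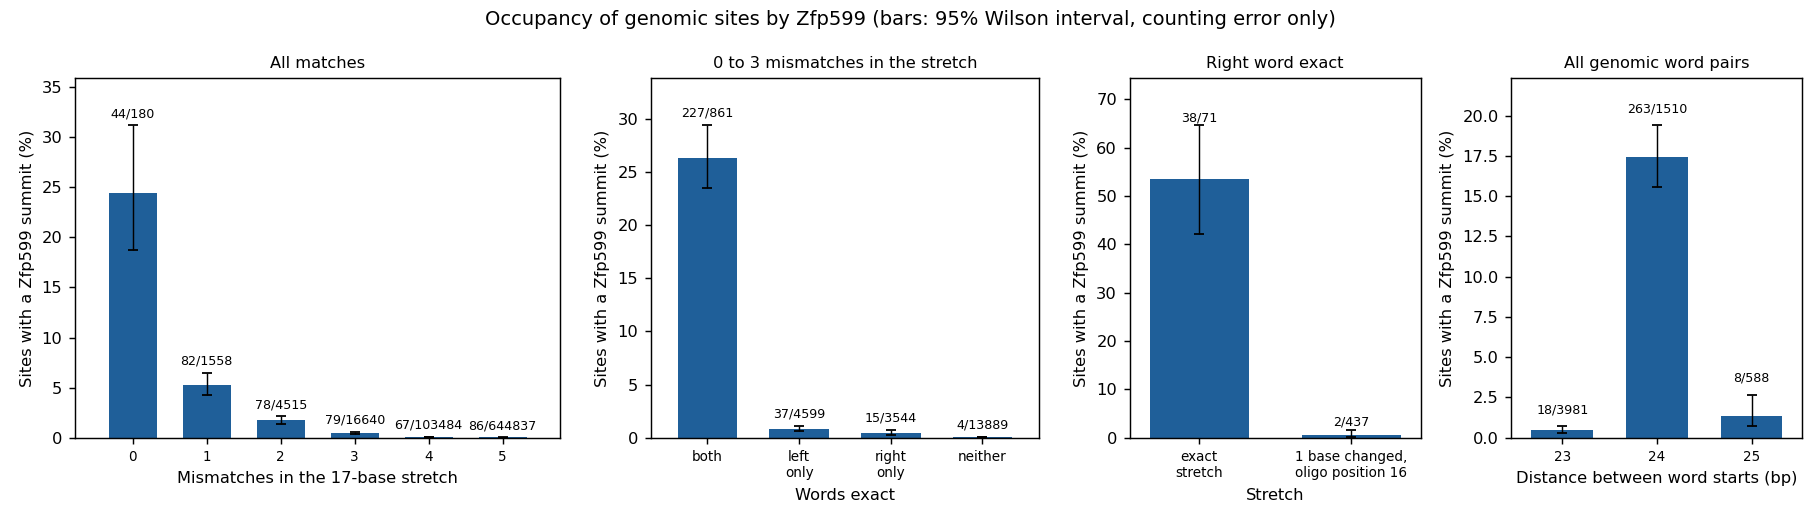
The share of genomic sites with a Zfp599 summit within 100 bp (y axes, %) is plotted by the number of mismatches in the 17-base stretch, by which word is exact, by a single base change at oligo position 16 among stretches with an exact right word, and by the distance between the starts of the words. Error bars are 95% Wilson intervals and numbers give occupied over all sites. The share is 53.5% for the exact stretch against 0.458% with the base change, and 17.4% at 24 bp against 0.452% at 23 bp. The stretch, the words and the spacing were chosen on Zfp599 peaks, so the shares are descriptions.

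The remaining 341 peaks had their summits outside profile matches, although a match could lie nearby. Their summits were closer to genes: 82 of 341 (24.05%, interval 19.8 to 28.9%) lay within 1 kb of a transcript start, against 9 of 356 inside matches (2.53%, interval 1.34 to 4.73%). The median distance to a transcript start was 7.29 kb outside and 19.6 kb inside. The median GC content was 50.5% outside and 45% inside, and 24 of the 25 summits in coding exons lay outside. The peaks were about as high, with a median fold enrichment of 30.01 outside and 32.2 inside and overlapping interquartile ranges. Peaks with a fold over 100 numbered 11 outside and 5 inside, and those with a fold over 40 numbered 97 outside and 118 inside.

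Some of these 341 peaks held the words in full or in part. The words were chosen on all Zfp599 peaks, these 341 included, so the counts below are descriptions. Both exact words stood at 23 to 25 bp in 7 of them (2.05%). Only 2 occupied genomic pairs themselves lay outside profile matches, so a pair in these windows could lie in a match beside the summit. Allowing 1 mismatch over both words gave 25 peaks (7.33%), against 46 peaks of the other HA ChIPs (0.384%). At a spacing 10 bp shorter or 10 bp longer the counts were 7 and 7 for Zfp599 and 45 and 41 for the others. With at most 2 mismatches the count was 79 (23.2%), against 37 and 34 at the shifted spacings. For the other HA ChIPs it was 583 (4.86%), against 727 and 565. The left word was also paired with the 4 inner letters GGAC of the right word. For summits outside profile matches the commonest distance was 24 bp, in 16 peaks, with 7 at 25 bp. The mean was 0.525 peaks at each of the other distances between -60 and 60 bp. Neither exact word was present in 186 of the 341 windows (54.5%), against 79.4% of the peaks of the other HA ChIPs. The share was 68.3% among the 82 of the 341 near a transcript start and 50.2% among the rest of them.

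**Figure D5:**
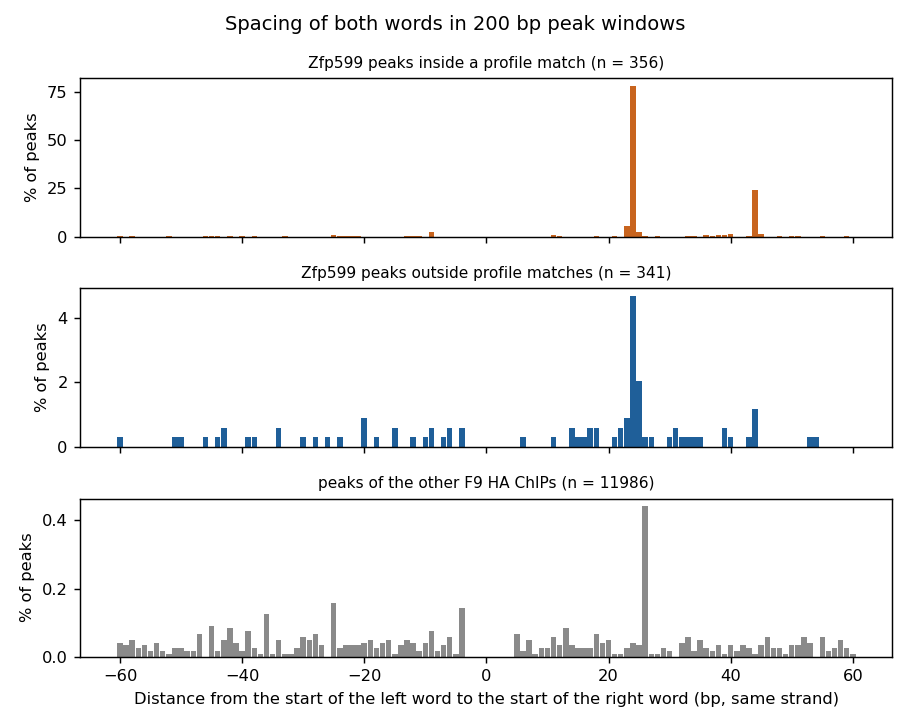
The share of peaks (y axes, %, on different scales) that hold the left word and the 4 inner letters of the right word is plotted against the distance between the word starts (x axis, bp, same strand), for Zfp599 peaks inside and outside profile matches and for peaks of the other HA ChIPs. Zfp599 peaks are highest at 24 bp in both groups (278 of 356 and 16 of 341), and the other HA ChIPs are highest at 26 bp, with 53 of 11986. The words were chosen on the Zfp599 peaks of both groups, and outside refers to the summit only. A second distance of 44 bp holds 86 of the 356 peaks inside matches. The commonest bases of the aligned sites also read CCATGT at positions -16 to -11, shared by 58.1 to 75.3% of sites. This upstream copy of the left word starts 44 bp before the right word.

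The 10 peaks with the largest fold enrichment had folds of 108 to 161, and 6 of them lay outside profile matches. The highest lay in an intron of Vsig10l (chr7:50720801-50721000), with a fold of 160.92 and 232 tags. Its closest match to the stretch had 7 mismatches, but it held the left word on the minus strand, in capitals as ACATGG, and both words at the site spacing with 1 mismatch in all. The second window, in Rimbp2, has the largest fold (33.88, equalled by a peak 53 bp from the start of Fam53b) of the 7 peaks outside profile matches with both words exact at the site spacing, also in capitals.
Vsig10l, chr7:50720801-50721000, plus strand: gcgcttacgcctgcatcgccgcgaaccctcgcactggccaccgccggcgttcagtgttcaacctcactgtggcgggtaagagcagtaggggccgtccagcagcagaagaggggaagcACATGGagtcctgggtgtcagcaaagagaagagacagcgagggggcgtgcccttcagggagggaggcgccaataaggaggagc
Rimbp2, chr5:129423636-129423835, plus strand: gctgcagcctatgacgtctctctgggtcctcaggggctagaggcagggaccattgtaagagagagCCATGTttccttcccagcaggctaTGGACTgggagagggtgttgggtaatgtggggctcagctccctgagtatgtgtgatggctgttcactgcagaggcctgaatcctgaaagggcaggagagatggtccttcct

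The next highest peaks were near genes of varied function. A fold of 142.29 was found in an intron of 1700093J21Rik, 225 bp from a transcript start, and 134.4 lay 163 bp from the start of Nqo1, which encodes a quinone reductase of the oxidative stress response. The peak 87 bp from the start of Higd1a, a mitochondrial protein of the hypoxia response, had a fold of 132.13 and both words at the site spacing with 1 mismatch. The peak in an intron of Rbl2, a pocket protein of the retinoblastoma family, had a fold of 124.23 and the most tags of all peaks (1076) over a called width of 1544 bp. An intron of Gla, which encodes the lysosomal alpha-galactosidase A, held a peak with a fold of 120.27.

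The 4 of the 10 inside profile matches were those in Znrf1 (120.16), an E3 ubiquitin ligase, Hps3 (116.92), a subunit of a complex for lysosome-related organelles, beside Gm12495 (112.72) and beside Hmgb2 (108.03), a chromatin protein.

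Within 1 kb of a transcript start, 91 peaks were found. Beyond those named above, the 10 highest of them were in the coding exon of Hoxc5 (105.02, 428 bp from the start) and near the starts of Slc17a9 (96.55), a vesicular nucleotide transporter, Apoc1 (79.61), an apolipoprotein, Ccdc9 (77.92) and Zfp36 (77.92), an RNA-binding protein that destabilises transcripts. Of the 10, Hps3 and Slc17a9 lay inside profile matches.

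Few genes held more than 1 summit. A summit lay within 340 annotated genes, 327 of which had 1. The annotated span of Fgfr2 (chr7:137305965-140315033) held 4, but it runs over other genes. The peak with a fold of 57.59 had no other host gene, while those of 33.88, 27.1 and 26.19 also lay in Fam53b (53 bp from its start), Tacc2 and Ctbp2. The span of Gm20388 (chr8:122434741-126869622) held 3, with folds of 51.94, 30.13 and 20.81, for which the nearest transcript starts were those of Nup133, Def8 and 1700018B08Rik, and 11 genes had 2, of which the first in alphabetical order were Ak7, BC042782 and Cacna2d4. Summits were spread over the genome, with 11 pairs of neighbours within 10 kb. Chromosome 10 had the most peaks for its length, at 38.5 per 100 Mb, and the X chromosome had 8.40.

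Within 10 kb of a protein-coding gene, peaks were found at 516 of 22208 genes (2.32%). Among genes named by the Hox pattern, 3 of 39 had a peak, which was the same peak in Hoxc5 counted also for Hoxc4 and Hoxc6. Among imprinted genes 2 of 33 had a peak, Gnas (fold 20.72) and Copg2 (20.33), and among pluripotency genes 2 of 32, Il6st (62.61), the shared receptor subunit of the LIF pathway, and Lin28b (37.27), an RNA-binding protein that blocks let-7 processing. Among silencing factors 2 of 31 had a peak, Mta3 (30.49), of the NuRD complex, and Atf7ip (25.01), the partner of the H3K9 methyltransferase SETDB1. None of 37 germline genes had a peak, which allows a share of up to 8.11%, and 8 of 422 zinc finger genes did (1.90%). The highest of these 8 were near Zfp518b (93.94, the site beside U6 shown above), Zbtb2 (78.45), Zfp36 (77.92), Zfp109 (64.37), Zfp791 (51.17) and Zfp106 (38.38). The interval for the Hox genes, 2.65 to 20.3%, lay just above the share over all genes, but its 3 genes rest on 1 peak. The intervals of the other lists included that share. Zfp599 itself, at chr9:22051874-22064339 on the minus strand, had no peak within 50 kb, and the nearest lay 1094 kb away with a fold of 24.16.

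Oligo-stretch sites in protein-coding genes ran against the host gene more often than along it. Of 95 occupied sites on a single gene strand, 27 were in the sense direction (28.4%, interval 20.3 to 38.2%), against 3479 of 8167 unoccupied sites (42.6%, interval 41.5 to 43.7%). The occupied and unoccupied sites also differ in sequence. Over all stretches, in genes or not, both words were exact at 227 of the 283 occupied ones and at 861 of 22893 in all. The part of this difference was not tested.

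Zfp599 peaks were then set against those of KRAB-ZFPs called over other controls. The set held the 10 F9 ChIPs called over the Gm14296 control and the 9 B6 ES ChIPs. A peak of this set overlapped 4 of 697 Zfp599 windows (0.574%) by 25% or more. The same share was not computed for the other HA ChIPs, so whether it is low cannot be told. It was 4 of 341 outside profile matches (interval 0.457 to 2.98%) and 0 of 356 inside (interval 0 to 1.07%), and these intervals overlapped. EtOHi1 shared 2, which are 0.287% of the Zfp599 peaks and 2.99% of the 67 peaks of EtOHi1, and Gm14401 and Gm14412 shared 1 each.

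Zfp617 (FLAG tag) and Zfp661 (HA tag), for which the study designed oligos from ORR1A2 and ORR1D2 elements, were called over an input library that Zfp599 also used, so only their values are set beside it. The Zfp599 stretch was present in 3.80% of 764 Zfp617 peaks and in 0 of 1065 Zfp661 peaks, which allows up to 0.282%. Summits of Zfp617 lay inside matches to the Zfp599 profile in 118 peaks (15.4%), yet at other positions. The median summit lay at position 56.5 from the start of the stretch, with quartiles of 47 and 66, against a median of 22 and quartiles of 12 and 33.2 for Zfp599. Of those 118 matches, 7 held both words 23 to 25 bp apart (5.93%, interval 2.90 to 11.7%), against 281 of 356 for Zfp599 (78.9%, interval 74.4 to 82.8%). Both had a peak at 5 loci. At chr3:96158651-96158850 the fold was 77.99 for Zfp599 and 45.23 for Zfp617, and beside Sall1 (chr8:91534613-91534812) it was 51.66 and 27.96. At the other loci the values were closer, at 65.74 and 59.23 (chr3:96183097-96183296), 29.26 and 24.71 beside Zfp936, and 28.6 and 26.67 beside 2210417A02Rik. The single locus called for both Zfp599 and Zfp661, beside Cdc37 (chr9:20957346-20957545), had folds of 24.16 and 44.17 and lay outside profile matches.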

How the data were processed

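ChIP-seq of tagged KRAB-ZFPs in mouse cells was analysed from the deposited peak table, in coordinates of mm9 (NCBIM37). The authors aligned reads with Bowtie, placing reads with several equal best positions at random, and called Zfp599 peaks with MACS 1.4.2 over F9_Input and HA_control at p < 1e-10 and enrichment > 20. The deposited columns hold a tag count per peak, fold enrichment (a ratio over the background of MACS), a score (-10 log10 of the p-value) and FDR in percent. The authors' window of 200 bp around each summit was used, its start read as 0-based. Tag counts in peaks are not library depth, which is unknown here. Names were matched to labels: 1 name with 244 peaks matched none and was left out, 1 label matched no name, and 0 columns of per-sample values had no sample.

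Sites were searched in the genome on both strands, copy number was counted for 24-mers, genes came from gencode vM1, and related sequence was found with HMMER 3.4 (nhmmer, E-value limit 1e-3). Python 3.11.15, numpy 2.4.6, pandas 2.3.3, scipy 1.17.1 and matplotlib 3.10.9 were used. Apart from the oligo-stretch share, which is a description, values of Zfp599 were compared with 29 samples by an exact permutation test over samples, two-sided. The Benjamini-Hochberg adjustment was over 8 values, the oligo-stretch share included. Shares carry 95% Wilson intervals. A share of 0 was given the limit that 3 counts allow. The searches were tested on simulated data.

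The peaks named are the 10 with the largest fold, the 10 with the largest fold within 1 kb of a transcript start, the 5 genes with the most summits, up to 6 members of each gene list with a peak within 10 kb, and any at Zfp599 itself. The members and lists were chosen with earlier results of these data known. The stretch, the words, their spacing, the profile and the occupancy by base change were chosen after seeing the data. Alternatives were the set of comparison samples, thresholds of enrichment, mismatches, windows, distances and copy number.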

Additional observations from a re-analysis of the deposited data

How the results depend on the processing

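Of 46 alternatives to the 8 values compared over samples, 10 changed the sign of the difference. The p-values say nothing of stability, since 1 sample against 29 or fewer cannot pass 0.05. All 10 concerned values within the range of the other samples. Against HA ChIPs called at p < 1e-10 and enrichment > 20 alone, Zfp599 minus the mean of the others was -38.53 bp for median width and -0.1806 points for GC content. Against HA ChIPs with an N-terminal tag it was -0.1283 for median fold. Against all other F9 ChIPs it was -60.75 for peak number, -50.88 bp for width and -0.2544 points for GC, while the difference in the share with the oligo site was 39.73 points, a description since the stretch was chosen on the Zfp599 peaks. With all samples held to enrichment > 20 the width differed by -11.95 bp, and at > 40 width differed by -74.03 bp, fold by -2.629 and GC by -0.5 points. The difference in the oligo-site share ranged from 28.7 points at 2 mismatches to 48.4 at 4. Occupancy of exact stretches was 11.67% when only peaks over 40 were counted, which are fewer peaks, and 23.4% for stretches under 10 copies, an alternative chosen after seeing the data. Protein-coding genes with a peak numbered 303 at 0 kb and 1282 at 50 kb. No paired analysis was possible because Zfp599 has 1 sample and no replicate numbers. The unknown library depth and the single sample limit all shares of occupied sites.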
